A study of Mus musculus with 2 samples.

Results

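The Bex and Tceal genes are small X-linked genes that code for short, largely unstructured proteins. Bex1, Bex2, Bex3, Bex4, Tceal1, Tceal3, Tceal5, Tceal8 and Tceal9 were selected by symbol, with their measured difference between panobinostat and vehicle already known, so their ratios are given as a description. All 9 had a row among the 19394 genes of the matrix, and all 9 lie on the X chromosome in the GENCODE M21 and RefSeq annotations. Tceal6 and Tceal7, the other 2 rows of these families, are given beside them.

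The cells were mouse renal progenitors of the Pax2 lineage, and the question was how panobinostat, an inhibitor of histone deacetylases, acts on them. Glomeruli from the kidney cortex of healthy C57Bl/6 mice aged 9 weeks (n = 2) carrying Pax2.rtTA, TetO.Cre and R26.mT/mG were cultured for 5 days, and cells that had grown out were sorted for GFP. In these mice a Pax2 promoter drives the reverse transactivator, which with doxycycline turns on Cre, and Cre then switches the membrane reporter from tdTomato to GFP. The sorted cells were starved for 16 h, then kept for 48 h with 0.2 µM panobinostat in 1 group or with the solvent DMSO (vehicle) in the other.

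Each treatment had 1 droplet 3′ library, so no spread between samples could be measured and no test was possible. What the drug did and what else set the libraries apart cannot be told apart. The panobinostat library held 2281 cells and 104188927 UMIs (distinct captured RNA molecules), and the vehicle library held 2854 cells and 90754967 UMIs. The median cell had 42394 UMIs in the panobinostat library and 27924 in the vehicle library, and the libraries shared 0 cell barcodes. All 8 markers fixed for the Pax2 lineage and parietal epithelium reached 10 CPM (UMIs per 1000000 UMIs of the library) in at least 1 library, with summed levels of 4880 CPM in panobinostat cells and 8894 CPM in vehicle cells. Of those 8 markers 2, Krt8 and Vcam1, were lower under panobinostat by 2-fold or more, and 0 were higher by as much. By phase scores, 2278 panobinostat cells were called G1, 3 S and 0 G2/M, while 1013 vehicle cells were called G1, 799 S and 1042 G2/M.

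The families are found in placental mammals and sit in clusters on the X chromosome with the Gprasp and Armcx genes. Bex1 and Bex3 are adaptors known from work on the p75 neurotrophin receptor, where Bex3 (also Nade, or Ngfrap1) was described as a p75-associated executor of cell death and Bex1 as a protein that, when overexpressed in rat cells, held back cell cycle exit and differentiation. The Tceal genes are named for their likeness to transcription elongation factor A (SII), and Tceal9 was long called Wbp5, for WW domain binding protein. In adult mice the families are best known from brain, and a short shared sequence at their starts, named BGW, has been described in the literature.

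The RefSeq start windows show what the genes share before any level is given. Each line below is the sense strand from 100 bases before the annotated start through the first 50 bases of the transcript side, on GRCm38.p6, with every TGACG and every CACGTG of that strand in capitals. Bex1 (minus strand, chrX:136215464-136215613) and Bex4 (plus strand, chrX:136138896-136139045) are shown because their windows are near-copies, and Bex2 (minus strand, chrX:136068187-136068336) and Bex3 (plus strand, chrX:136270153-136270302) for the same reason. Tceal5 (minus strand, chrX:136203835-136203984) and Tceal8 (minus strand, chrX:136172202-136172351) are shown because they hold the same arrangement and had very different ratios, and Tceal9 (plus strand, chrX:136244980-136245129) because it lacks CACGTG.
Bex1: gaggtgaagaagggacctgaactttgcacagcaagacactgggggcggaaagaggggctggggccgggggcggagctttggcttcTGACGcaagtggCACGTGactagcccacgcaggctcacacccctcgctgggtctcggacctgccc
Bex4: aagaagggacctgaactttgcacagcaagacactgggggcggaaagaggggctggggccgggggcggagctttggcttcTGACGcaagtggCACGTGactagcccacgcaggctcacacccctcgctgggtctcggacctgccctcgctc
Bex2: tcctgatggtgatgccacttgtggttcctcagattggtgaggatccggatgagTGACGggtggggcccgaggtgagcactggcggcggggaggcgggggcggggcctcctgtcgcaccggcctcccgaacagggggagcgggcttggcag
Bex3: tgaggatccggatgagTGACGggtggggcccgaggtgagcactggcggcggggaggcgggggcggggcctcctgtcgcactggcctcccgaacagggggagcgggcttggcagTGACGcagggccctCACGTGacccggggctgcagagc
Tceal5: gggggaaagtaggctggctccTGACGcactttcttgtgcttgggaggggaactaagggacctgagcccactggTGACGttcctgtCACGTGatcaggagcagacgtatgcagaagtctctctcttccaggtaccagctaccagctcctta
Tceal8: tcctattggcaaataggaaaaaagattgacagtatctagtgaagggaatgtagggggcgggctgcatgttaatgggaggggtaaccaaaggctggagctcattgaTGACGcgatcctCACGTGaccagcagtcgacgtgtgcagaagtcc
Tceal9: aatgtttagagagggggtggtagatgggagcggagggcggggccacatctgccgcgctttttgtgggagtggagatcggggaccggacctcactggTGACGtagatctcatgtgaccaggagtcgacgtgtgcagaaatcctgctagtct

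Over the full RefSeq window of 300 bases (250 before the start and 50 after), the Bex1 and Bex4 windows aligned over 290 bases at 99.0% identity. The Bex2 and Bex3 windows aligned over 199 bases at 99.0% identity. The coding parts paired the genes otherwise. Bex1 and Bex2 aligned over 389 coding bases at 91.5% identity, while the best local alignment of Bex1 with Bex4 covered 30 coding bases. Tceal3, Tceal5 and Tceal6 were near-copies in their coding parts, with 98.2% identity over 600 bases between Tceal3 and Tceal6, 90.7% over 569 bases between Tceal5 and Tceal6, and 89.8% over 589 bases between Tceal3 and Tceal5. In the GENCODE transcripts used, all 11 family genes had their whole coding part in 1 exon, with 98 codons in Tceal7 at the short end and 200 in Tceal3, Tceal5 and Tceal6 at the long end.

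The likeness of the coding parts bears on the counts, since a 3′ library reads the end of a transcript. In the last 300 transcript bases, Tceal3 and Tceal6 still aligned over 297 bases at 91.6% identity, and Bex1 and Bex2 over 300 bases at 79.7% identity. The sources used here do not say how reads that match several genes were counted, so the split of reads between Tceal3 and Tceal6 is uncertain.

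The word CACGTG, the canonical E-box, was present in a 300-base window of 7 of the 9 genes (both strands searched). Of the 27025 genes with a window (32851 windows in all), 8.09% had CACGTG. Its first base lay between 15 bases before and 27 bases after the annotated start in the 7 genes. TGACG, a word found in cAMP response elements, was present in 9 of 9 genes and in 23.0% of all genes with a window. GGGCGG occurred in 7 of 9 genes and in 38.2% of all genes with a window. CCAAT occurred in 4 of 9 and in 41.1%, and TATAAA in 1 of 9 (Bex2) and in 15.7%.

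A fixed arrangement of the 2 words was noticed after these windows were read. TGACGNNNNNNNCACGTGA, with a spacer of 7 bases, was found in 12 of the 32851 windows (0.0365%), which belonged to 10 genes, and 5 of those were Bex1, Bex4, Tceal3, Tceal5 and Tceal8. TGACGNNNNNNNNNCACGTGA, with a spacer of 9 bases, was found in 6 windows (0.0183%) of 6 genes, and 2 of those were Bex3 and Tceal1. Of the 16 genes with either spacing, 12 were on the X chromosome, which holds 3.87% of the 27025 genes with a window. The arrangement was read off the windows of the X-linked members, so the 7 members among the 12 were on the X by construction. Tceal6, also among the 12, belongs to the same families. The other 9 genes were Armcx1, Armcx4, Armcx6, Tceal6 and B230119M05Rik on the X chromosome and Gm40744, Rcbtb1, Ubap2 and Vps33a elsewhere. Whether these letters are the BGW sequence was not tested, and their absence from the Bex2 and Tceal9 windows says only that they are not in those windows. The Bex2 window ends at the bases that in Bex3 come directly before the spaced words, and the bases beyond it were not searched. Tceal9 has TGACG and a spacer of 7 bases followed by catgtga, where the others have CACGTGA.

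Genes whose windows held the arrangement had ratios far apart, and whether it bears on the ratio was not tested. Tceal5, with a spacer of 7 bases, had a log2 ratio of 4.73 between panobinostat and vehicle, and Tceal8, with the same spacer, had 0.36. Bex2, whose window held neither spacing, had 4.84. Outside the families, among genes reaching 10 CPM in at least 1 library, Rcbtb1 had a log2 ratio of 0.13, Vps33a of -0.22 and Ubap2 of -0.09. Below 10 CPM in both libraries, Armcx6 had 2.44, Armcx1 0.64 and Armcx4 -0.59, and B230119M05Rik and Gm40744 had no row. Of the 9 genes with either spacing that reached 10 CPM in at least 1 library, 4 were higher by 2-fold or more (Bex1, Bex4, Tceal3 and Tceal5) and 0 were lower by as much. All 4 were selected on this contrast, and of the 3 genes outside the families none was called, while 9.85% of the 8872 genes at that level were called higher and 11.0% lower. The count therefore says nothing about the arrangement.

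Levels below are CPM of the UMIs summed over all cells of a library. A 3′ UMI counts 1 molecule whatever the length of the transcript, so CPM is set side by side between genes without division by length. Intervals are 95% intervals for counting error only, exact Poisson for a CPM and exact conditional binomial for a log2 ratio of panobinostat over vehicle.

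Among the Bex genes, Bex3 was the most abundant in both libraries, with 1183 CPM in panobinostat cells (1176 to 1189) and 747 CPM in vehicle cells (741 to 752). Its log2 ratio was 0.66 (0.65 to 0.68), a 1.58-fold difference. Bex3 was thus highly expressed with or without the drug.

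Bex1 had 645.8 CPM in panobinostat cells (640.9 to 650.7) and 178.3 CPM in vehicle cells (175.6 to 181.1), from 67283 and 16183 UMIs. Its log2 ratio was 1.86 (1.83 to 1.88), which is 3.62-fold. Bex4, which in human cells was reported to bind tubulin and the deacetylase SIRT2, had 188.5 CPM in panobinostat cells (185.9 to 191.2) and 37.9 CPM in vehicle cells (36.6 to 39.2). Bex4's log2 ratio was 2.31 (2.26 to 2.37), or 4.98-fold. Bex1 and Bex4, the pair with near-identical start windows, therefore differed in level within each library and had ratios whose counting intervals did not overlap.

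Bex2, whose human counterpart binds the transcription cofactor LMO2, had 69.4 CPM in panobinostat cells (67.8 to 71.0) and 2.42 CPM in vehicle cells (2.11 to 2.77), from 7228 and 220 UMIs. The log2 ratio was 4.84 (4.65 to 5.04), 28.6-fold and the highest of the 9 point values, with an interval that overlapped those of Tceal5 and Tceal3. Bex2 went with Bex3 by its start window and with Bex1 by its coding part, and its ratio lay apart from those of both.

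Among the Tceal genes, Tceal9 stood near Bex3, with 1144 CPM in panobinostat cells (1137 to 1150) and 811 CPM in vehicle cells (805 to 817). The Tceal9 log2 ratio was 0.50 (0.48 to 0.51). Tceal8 had 179.5 CPM in panobinostat cells (176.9 to 182.0) and 139.5 CPM in vehicle cells (137.1 to 141.9), with a log2 ratio of 0.36 (0.33 to 0.40). Both were expressed in both libraries and neither reached a 2-fold difference.

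Tceal5 had 50.4 CPM in panobinostat cells (49.1 to 51.8) and 1.91 CPM in vehicle cells (1.63 to 2.21), from 5255 and 173 UMIs. The Tceal5 log2 ratio was 4.73 (4.51 to 4.95), or 26.5-fold. Tceal3 had 15.7 CPM in panobinostat cells (14.9 to 16.5) and 0.782 CPM in vehicle cells (0.611 to 0.987), from 1634 and 71 UMIs, with a log2 ratio of 4.33 (3.98 to 4.69). Tceal3 and Tceal5 were thus scarce in vehicle cells, and the intervals of their ratios overlapped that of Bex2.

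Tceal1, also called p21 or SIIR in human, was the rarest of the 9 under panobinostat. It had 4.83 CPM in panobinostat cells (4.42 to 5.27) and 3.70 CPM in vehicle cells (3.32 to 4.12), and a log2 ratio of 0.38 (0.18 to 0.59). Tceal6 had 360 UMIs in the panobinostat library and 3 in the vehicle library, that is 3.46 and 0.0331 CPM, and a log2 ratio of 6.71 with a wide counting interval of 5.15 to 8.99. Tceal7 had 58 UMIs in the panobinostat library and 40 in the vehicle library, with an interval for its log2 ratio of -0.27 to 0.96. Tceal1, Tceal6 and Tceal7 stayed below 10 CPM in both libraries, and the ratio of Tceal6 carries the uncertainty of its near-copy Tceal3.

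By level, the order in panobinostat cells was Bex3, Tceal9, Bex1, Bex4, Tceal8, Bex2, Tceal5, Tceal3 and Tceal1, with no overlap of counting intervals between neighbours in that order. In vehicle cells the order was Tceal9, Bex3, Bex1, Tceal8, Bex4, Tceal1, Bex2, Tceal5 and Tceal3. There the intervals of Bex2 and Tceal5 overlapped, so those 2 could not be ordered. Bex3, Tceal9 and Bex1 together gave 85.4% of the UMIs of the 9 genes in panobinostat cells and 90.3% in vehicle cells. The 9 genes summed to 3480 CPM in panobinostat cells and 1922 CPM in vehicle cells, a 1.81-fold difference.

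**Figure D1:**
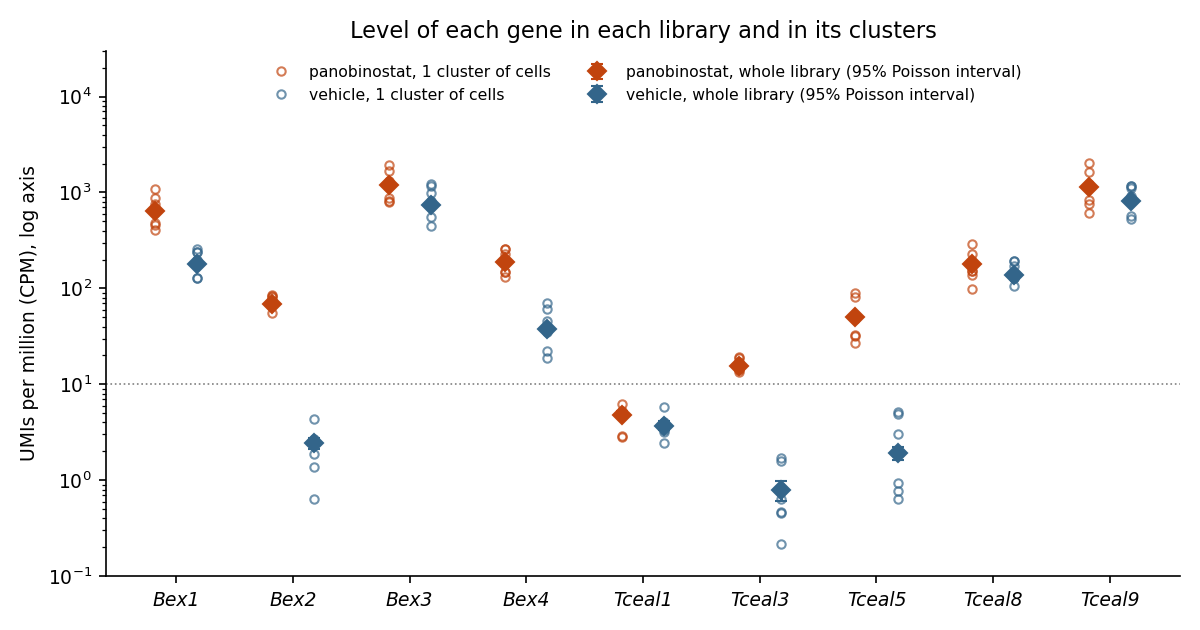
Level of each of the 9 genes in CPM (log axis): filled diamonds are the whole library with its 95% Poisson interval, open circles the 6 clusters of cells within it, panobinostat left of vehicle, and the dotted line marks 10 CPM. Bex2, Tceal3 and Tceal5 lie below the line in vehicle cells and above it in panobinostat cells, while Bex3, Tceal8 and Tceal9 lie above it in both.

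Of the 9 genes, 5 (Bex1, Bex2, Bex4, Tceal3 and Tceal5) were at least 2-fold higher under panobinostat by a rule of size, which asked for 10 CPM in 1 library, a 2-fold ratio and a counting interval clear of equality, and 0 were at least 2-fold lower. By the same rule 874 of 8872 genes were higher (9.85%) and 973 lower (11.0%). With TMM factors in place of library totals these counts were 740 and 1232. The 9 genes were selected on this contrast, so the background is printed only for scale. Of the 9, 8 passed the floor of 10 CPM, and Bex2, Tceal3 and Tceal5 passed it through the panobinostat library alone. Over all cells the ratio was above 0 with an interval clear of 0 in all 9, though not for Tceal1 in cells called G1. The median log2 ratio was 1.86, beside -0.07 over the 8872 genes, and 0.66 over the 5 members of at least 10 CPM in both libraries. Among those 8872, ranked from the highest ratio, Bex2 stood at place 53, Tceal5 at 57, Tceal3 at 68, Bex4 at 245 and Bex1 at 344, then Bex3 at 1500, Tceal9 at 1977 and Tceal8 at 2465.

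The libraries also differed in the share of cells with any UMI of a gene. At low mean counts this share largely follows the mean level, so it is not a separate part of the difference. Whether more cells expressed a gene was not tested. To read the shares, each cell was thinned to 18663 UMIs. Thinning left 2221 panobinostat cells and 2401 vehicle cells and dropped 60 and 453 shallower ones. Bex2 had a UMI in 63.4% of thinned panobinostat cells (exact binomial 95% interval 61.4 to 65.4) and in 3.96% of thinned vehicle cells (3.21 to 4.82), and without thinning in 83.4% and 5.47%. Tceal5 had a UMI in 43.1% of thinned panobinostat cells and 2.58% of thinned vehicle cells, against 59.9% and 4.56% without thinning. Tceal3 had one in 24.1% and 1.25% of thinned panobinostat and vehicle cells, and 43.8% and 2.14% without thinning. At this depth all 3 genes were thus seen in few vehicle cells, and in panobinostat cells most often for Bex2 and least often for Tceal3.

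Bex4 was detected in 88.2% of thinned panobinostat cells and 35.6% of thinned vehicle cells (95.1% and 43.7% without thinning), and Bex1 in 97.1% and 73.7% (98.6% and 78.7%). Bex3 was found in 99.3% of thinned panobinostat cells and 98.3% of vehicle cells (99.1% and 98.5% without thinning), and Tceal9 in 99.2% and 98.6% (99.1% in each without thinning). Tceal8 was found in 90.4% and 85.5% (96.6% and 90.7%), and Tceal1 in 8.51% and 6.25% (18.6% and 10.8%). No cell type known to lack these genes was in the sort, so the share that free RNA alone would give was not measured.

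Thinned cells held a median of 6 of the 9 genes in the panobinostat library and 4 in the vehicle library. At least 6 genes were seen in 1647 panobinostat cells (74.2%) and in 153 vehicle cells (6.37%). The 9 genes together had a median of 54 UMIs per thinned panobinostat cell (5th to 95th percentile 15 to 136) and 27 per thinned vehicle cell (7 to 88). The ranges of single cells therefore overlapped widely, and 13 cells in each library had no UMI of any of the 9.

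**Figure D2:**
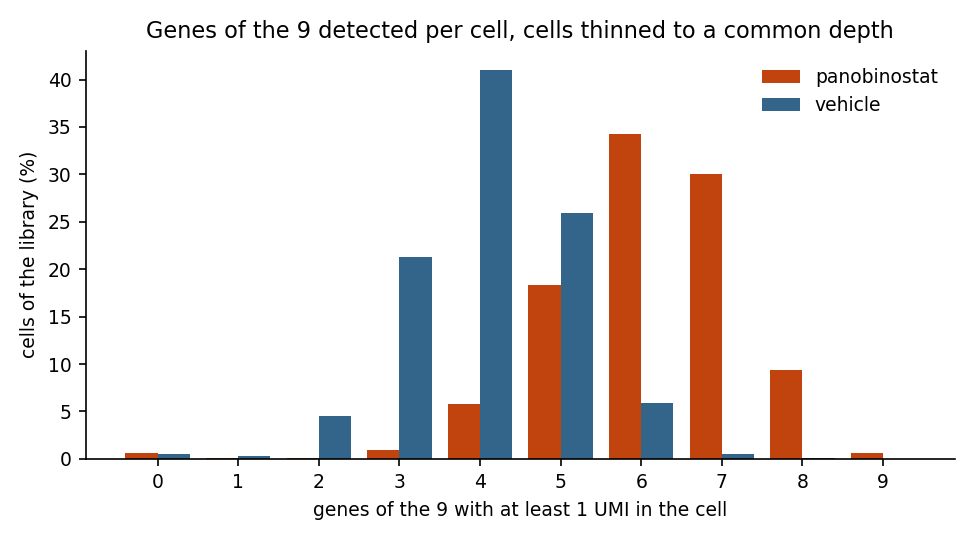
Share of thinned cells (vertical axis, percent of the library) by how many of the 9 genes had at least 1 UMI in the cell (horizontal axis), with panobinostat bars left of vehicle bars. The panobinostat cells centre on 6 genes and the vehicle cells on 4.

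Within a library the abundant genes varied from cell to cell far beyond counting error. The variance over mean of the UMIs per thinned cell, which counting alone would hold near 1, was 11.9 for Tceal9 in panobinostat cells and 9.49 in vehicle cells. For Bex3 it was 8.57 in panobinostat cells and 9.95 in vehicle cells, and for Bex1 7.15 and 4.25. For Tceal1 it was 1.04 in panobinostat cells and 1.00 in vehicle cells, at means below 0.1 UMI per cell.

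The same genes varied together. Bex3 and Tceal9, which lie 23.1 kb apart, had a Pearson r of log2(UMIs + 1) of 0.86 over 2221 panobinostat cells and 0.81 over 2401 vehicle cells. Bex1 had r of 0.77 with Bex3 in panobinostat cells and 0.53 in vehicle cells, and with Tceal9 0.77 and 0.52. Bex4 had r of 0.55 with Bex3 in panobinostat cells and 0.38 in vehicle cells. Tceal8 had r of 0.56 with Tceal9 in panobinostat cells and 0.38 in vehicle cells. Cells of a library share its preparation, and no p is given.

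The rarer genes tracked the others less. Tceal5 had r of 0.42 with Bex1 in panobinostat cells and 0.09 in vehicle cells. Bex2, with more UMIs than Tceal5 under panobinostat, had r of 0.22 with Bex1 in panobinostat cells and 0.03 in vehicle cells. Tceal1 and Tceal3 had r of at most 0.11 with any other of the 9 in either library, at counts so low that r is limited by counting.

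**Figure D3:**
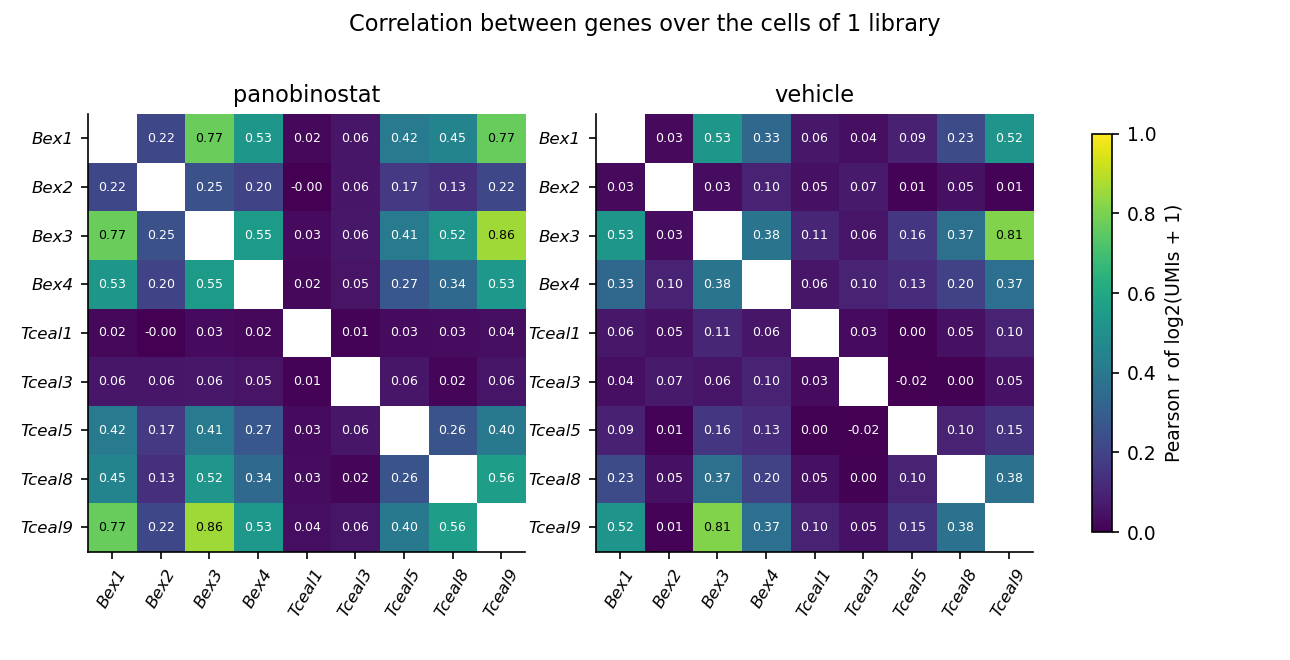
Pearson r of log2(UMIs + 1) between each pair of the 9 genes over the thinned cells of 1 library, panobinostat on the left (2221 cells) and vehicle on the right (2401 cells), with the colour scale running from 0 to 1. Bex3 with Tceal9 has the highest r in both, at 0.86 and 0.81, and the rows of Tceal1 and Tceal3 are near 0.

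The cells were split into 6 clusters within each library with all Bex and Tceal genes left out of the clustering. For 5 of the 9 genes the lowest panobinostat cluster stood above the highest vehicle cluster, as it did for 17.4% of the 8872 genes, with 13.4% the other way round. These were Bex1 (405.4 against 254.6 CPM), Bex2 (55.6 against 4.38), Bex4 (132.7 against 71.0), Tceal3 (13.4 against 1.72) and Tceal5 (26.8 against 5.13). The clusters overlapped for Bex3, Tceal1, Tceal8 and Tceal9. The 5 genes that differed most between libraries were thus higher in every cluster of panobinostat cells than in any cluster of vehicle cells.

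Among panobinostat clusters the 9 genes summed to between 2177 and 5772 CPM. The highest sum was in the cluster of 155 cells led by Tagln, Uts2b and Sparc, and the next, 4853 CPM, in 643 cells led by Kitl, Gata3 and Pmp22. The largest cluster, 1050 cells led by Cldn16 and Il5ra, had 2610 CPM. In the vehicle library the sums ran from 1228 CPM in 657 cells led by mitotic genes such as Ube2c and Cenpe to 2883 CPM in 96 cells led by Cnn1 and Myl9, which were shallower than the rest (median 14485 UMIs). Vehicle clusters led by Clu and Ltc4s (433 cells) and by Depdc7 and Gata3 (500 cells) had 2800 and 2561 CPM.

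Bex2 and Tceal3 were the most even over panobinostat clusters, with highest over lowest of 1.52 and 1.43. Tceal5 was the least even there, at 3.36, from 26.8 to 90.0 CPM. In vehicle clusters Bex2, Tceal3 and Tceal5 were at most 5.13 CPM.

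Since nearly all panobinostat cells were called G1, the vehicle cells were also read by phase. Vehicle cells called G1 had 841 CPM of Bex3, those called S 709 and those called G2/M 691. Bex1 was lowest in G1, with 160 CPM there, 189 in S and 187 in G2/M, and the counting intervals of S and G2/M overlapped. Bex2 had 2.51, 2.74 and 2.15 CPM and Tceal5 1.99, 1.29 and 2.23 CPM in vehicle cells called G1, S and G2/M. With cells called G1 alone in both libraries, the log2 ratio was 2.01 for Bex1 and 2.35 for Bex4, both above the values over all cells, and below those values for the other 7. It was 0.49 for Bex3, 0.43 for Tceal9 and 0.10 for Tceal8. For Tceal1 it was 0.06, with a counting interval of -0.21 to 0.34 that held 0. Bex2, Tceal3 and Tceal5 had 4.79, 4.29 and 4.66. The part of the phase in these values was not tested further.

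Of the p75 receptor partners and neurotrophins, 10 of 18 listed genes passed the floor, and their median log2 ratio was -0.37, with 1 called higher and 2 called lower. Sort1, the sortilin coreceptor, had 38.0 CPM in panobinostat cells and 17.0 CPM in vehicle cells (log2 ratio 1.16). The kinase gene Irak1, one of those called lower, had 22.7 CPM in panobinostat cells and 56.6 CPM in vehicle cells (-1.32). The p75 receptor itself, Ngfr, stayed rare at 2.13 CPM in panobinostat cells and 0.397 CPM in vehicle cells. Bex1 and Bex3 were thus abundant in cells with few Ngfr transcripts.

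Of the Lmo2 complex, the setting in which human BEX2 is known, 8 of 14 listed genes passed the floor, 2 were higher and 0 lower, with a median of 0.02. Ssbp2 had 27.0 CPM in panobinostat cells and 4.03 CPM in vehicle cells (log2 ratio 2.74), and Ssbp3 69.5 and 31.3 CPM (1.15). Both code for proteins that bind the Lmo2 partner Ldb1. Lmo2 itself had 0.672 CPM in panobinostat cells and 0.220 CPM in vehicle cells, below the floor.

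Of the transcription elongation factors, whose first member gave the Tceal genes their name, 24 of 26 listed genes passed the floor, and their median log2 ratio was 0.01, with 1 called higher and 1 called lower. The higher one was Tcea3, a form of elongation factor A itself, with 40.8 CPM in panobinostat cells and 1.30 CPM in vehicle cells (log2 ratio 4.97). The lower one was Ssrp1, a subunit of the histone chaperone FACT, with 110.5 and 256.9 CPM (-1.22). Tcea1, the general form, had 57.1 CPM in panobinostat cells and 69.6 CPM in vehicle cells.

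The neighbourhood on the X chromosome was read next, as position was not used to select the genes. The 9 genes span 643.3 kb from Bex2 to Tceal1 on GRCm38 (chrX:136066565-136709873), and 7 of them lie within 205.4 kb from Bex2 to Bex3. Between Tceal6 and Tceal1 and 500 kb to either side, 26 other annotated genes had a row, and 9 of these passed the floor. Of those 9, 5 were higher by 2-fold or more and 0 lower. Of these 5, all but Armcx2 passed the floor through the panobinostat library alone, and such genes could be called only higher. Of the 277 X genes reaching 10 CPM, which include the members and these neighbours, 14.1% were higher and 6.86% lower. The median log2 ratio of the 277 was 0.16. With 1000 kb to either side, 16 passed the floor, of which 6 were higher and 1 lower, and their median log2 ratio was 0.73 in place of 1.71. No test of the neighbourhood was possible with 1 library per treatment.

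The 5 neighbours were Gprasp2, Tmsb15b1, Zcchc18, Gprasp1 and Armcx2. Gprasp2, one of the G protein-coupled receptor associated sorting proteins, had 10.4 CPM in panobinostat cells and 0.110 CPM in vehicle cells, with a log2 ratio of 6.57 (5.68 to 7.63). Gprasp1 had 22.2 and 6.74 CPM (1.72), Armcx2 41.9 and 12.8 CPM (1.71), Zcchc18 13.5 and 2.26 CPM (2.58), and Tmsb15b1, a thymosin beta gene with near-identical copies beside it, 22.1 and 3.45 CPM (2.68). In the same window Morf4l2, a subunit of chromatin-modifying complexes, had 171.3 CPM in panobinostat cells and 281.2 CPM in vehicle cells (-0.72). Of the 26 neighbours 23 had a ratio above 0, counting genes with 0 UMIs in vehicle at 3 counts. Some of these rest on few UMIs, such as Nxf3 (4 under panobinostat and 0 in vehicle), Nxf7 (6 and 0) and Rab9b (10 and 2). The share of all genes above 0 was not counted. With no floor the median log2 ratio of all 19394 genes was 0.16, and 4125 were called higher and 1856 lower. Of the 12 genes of the Armcx and Gprasp list as a whole, 6 passed the floor, 3 were higher and 0 lower, with a median of 1.23. The 3 were Gprasp1, Gprasp2 and Armcx2, already counted among the 5 neighbours. Of all 8872 genes past the floor, 9.85% were called higher.

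**Figure D4:**
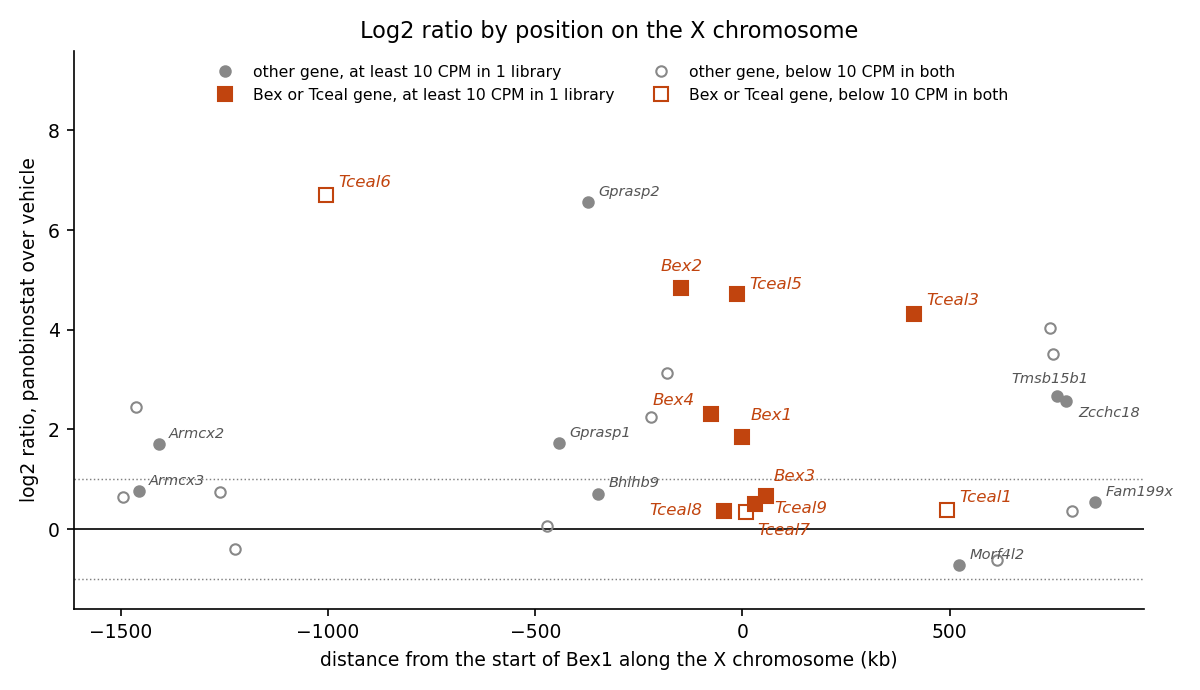
Log2 ratio of panobinostat over vehicle (vertical axis) against the distance of each gene's midpoint from the start of Bex1 (horizontal axis, kb), for Bex and Tceal genes (squares) and 20 neighbours with at least 4 UMIs in each library (circles), filled where the gene reached 10 CPM in 1 library. Tceal8, with a ratio under 1, lies between Bex4 and Tceal5, with ratios above 2, and 6 neighbours with fewer UMIs are not drawn.

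Position within the block did not sort the ratios. Tceal8, with a log2 ratio of 0.36, lies between Bex4 at 2.31 and Tceal5 at 4.73, and Tceal7 and Tceal9 follow Bex1 with 0.34 and 0.50.

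The genes most like the 9 over cells were ranked by the r of their log2(UMIs + 1) with that of the 9 genes' sum, among 2886 genes of at least 50 CPM in the panobinostat library. The 8 highest in panobinostat cells were the actin-binding Tmsb4x (r 0.43 in panobinostat cells and 0.37 in vehicle cells), the myelin gene Pmp22 (0.39 and 0.16), the polyamine enzyme gene Sat1 (0.39 and 0.20), clusterin Clu (0.35 and 0.33), Cd24a (0.35 and 0.21), the protease gene Prss23 (0.34 and 0.25), destrin Dstn (0.33 and 0.36) and Ahnak (0.33 and 0.03). Tmsb4x ranked 1 in both libraries, and Ahnak ranked 618 in vehicle cells. None came near the r of 0.86 between Bex3 and Tceal9 in panobinostat cells. Tmsb4x and Sat1 are X-linked, and 5 of the first 30 genes in panobinostat cells and 6 in vehicle cells were on the X chromosome, which held 3.08% of the genes ranked.

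The sum of 577 other X genes had r of 0.48 with the sum of the 9 over panobinostat cells and 0.45 over vehicle cells, and 0.44 and 0.39 without Tmsb4x. The same r for chromosomes 1 to 19 ran from -0.15 to 0.12 in panobinostat cells and from -0.16 to 0.12 in vehicle cells. Xist, the noncoding RNA of the inactive X, had 361.1 CPM in panobinostat cells and 310.0 CPM in vehicle cells and r of -0.05 and 0.01 with the sum of the 9. Part of the X relation rested on a few cells with very low or very high X totals, without which r was 0.34 in panobinostat cells and 0.28 in vehicle cells.

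**Figure D5:**
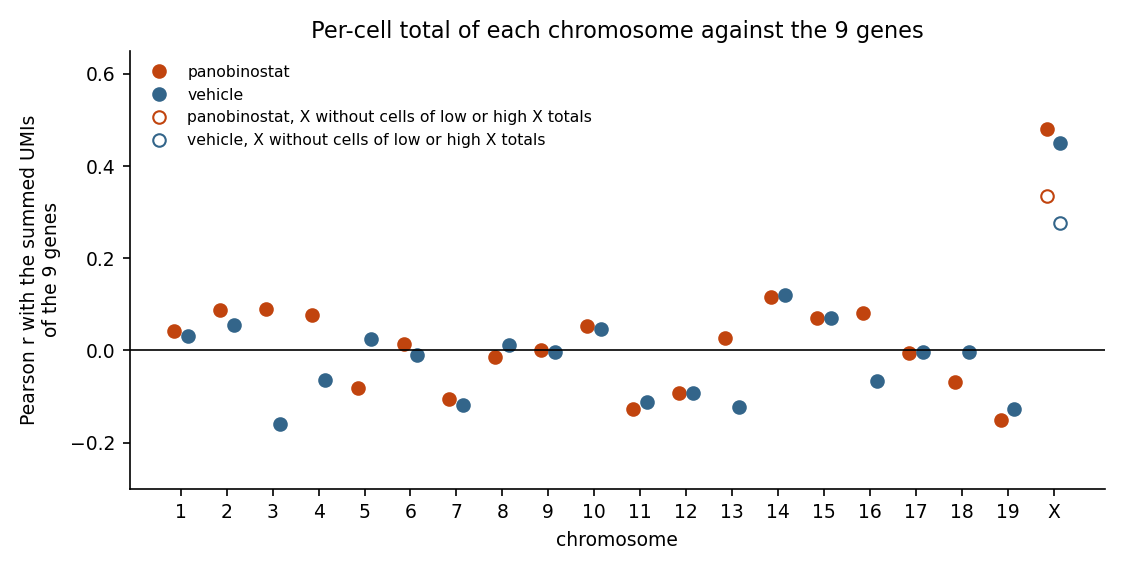
Pearson r over cells (vertical axis) between the log2 sum of the 9 genes and the log2 sum of all other genes of each chromosome (horizontal axis), panobinostat left of vehicle. Chromosomes 1 to 19 lie between -0.16 and 0.12, the X chromosome at 0.48 and 0.45, and open circles give the X without cells of low or high X totals, at 0.34 and 0.28.

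Markers of other cell types were read beside these values. Of 13 neuron and neuroendocrine markers 8 passed the floor and all 8 were called higher, while 9.85% of all genes past the floor were. Of those 8 only Stmn2 reached 10 CPM in vehicle cells too. The others passed the floor through the panobinostat library alone and could be called only higher. Below the floor, Elavl4, Snap25, Nefl and Rbfox3 had log2 ratios with intervals above 0, and Chgb 0.18 with an interval that held 0. The 13 markers summed to 771 CPM in panobinostat cells and 34.4 CPM in vehicle cells, with none at 0. Stmn2 led with 553.5 CPM in panobinostat cells and 26.3 CPM in vehicle cells. The part of these genes in the values of the 9 was not tested. The 209 thinned vehicle cells with a Stmn2 UMI had a mean of 24.2 UMIs of the 9, and the 2192 without one had 36.8, sums carried by Bex3, Tceal9 and Bex1. Bex2 had a UMI in 5.74% of the vehicle cells with Stmn2 and in 3.79% of those without. Every other member was seen in a smaller share of the cells with Stmn2 than of those without. For Bex4 the shares were 21.5% and 36.9%, for Tceal5 0.479% and 2.78%, and for Tceal3 0.479% and 1.32%. Those of Tceal5 and Tceal3 rest on very few of the 209 cells. The shares lay close for Tceal1 (5.74% and 6.30%), Bex3 (97.1% and 98.4%) and Tceal9 (98.1% and 98.7%), and no interval is given. In panobinostat cells, 1327 with a UMI of the imprinted gene Meg3 had a mean of 69.2 UMIs of the 9, and the 894 without one had 54.3.

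Schwann cell and glia markers summed to 41.6 CPM in panobinostat cells and 45.1 CPM in vehicle cells, with 2 of 7 past the floor and 0 called either way. Mesangium, fibroblast and smooth muscle markers summed to 77.3 and 1432 CPM in panobinostat and vehicle cells (2 of 6 past the floor, both lower), endothelium markers to 3.19 and 9.08 CPM (0 of 5 past the floor) and podocyte markers to 24.4 and 12.8 CPM (1 of 7 past the floor, Synpo, higher). Macrophage and leukocyte markers summed to 68.2 CPM in panobinostat cells and 5.18 CPM in vehicle cells, nearly all of it Cd68, and tubule markers to 13.0 and 0.771 CPM, nearly all of it Lrp2. Their part in the values of the 9 was not tested.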

How the data were processed

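The authors deposited raw UMI counts per gene and cell, with no normalization and genes named by symbol. Cell Ranger 3.0.1 and build mm10 are named, per the submitters' processing notes. The annotation and the filters applied before deposit are not given in the sources used here. Each cell's library was read from the deposited barcode ending (another value, not a measurement), the drug's short name or the control mark.

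Counts were summed per library and scaled to CPM; a gene with 0 UMIs was set at 3 counts (0.0288 CPM under panobinostat, 0.0331 CPM in vehicle). A gene was called at 2-fold with at least 10 CPM in 1 library and a 95% interval clear of equality, a rule checked on simulated data. Cells were thinned to 18663 UMIs (percentile 10 of all cells' totals). Clusters (scanpy 1.11.5, leidenalg 0.10.2, resolution 0.5) used 2000 variable genes, 30 components and 15 neighbours, within each library. Doublets were not removed. Alternatives took TMM factors from edgeR 4.0.16 and size factors from DESeq2 1.42.0, with no test from either. Windows, annotated gene names and identities came from RefSeq (GRCm38.p6) and GENCODE M21, aligned with Biopython 1.88; local alignments of few bases are not given. Of the 19394 symbols, 17551 matched RefSeq.

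The members, lists and markers were chosen with earlier results of these data known. The genes named are all 9 members, other rows of the families, called neighbours past the floor, up to 4 genes per list by size of ratio and the 8 most like the members; others were named after their values were seen. The value of 1 listed gene is not reported here.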

Additional observations from a re-analysis of the deposited data

How the results depend on the processing

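The count of the 9 genes at least 2-fold higher was 5 with every scaling and choice of cells tried. It was 5 with no floor, 4 with a floor of 50 CPM, 6 at 1.5-fold and 4 at 4-fold. Over all genes, those called higher were 4125 of 19394 with no floor and 295 of 3657 with a floor of 50 CPM. They were 1708 of 8872 at 1.5-fold and 317 of 8872 at 4-fold, beside 874 of 8872 by the main rule. Each gene's log2 ratio stayed above 0 throughout, closest in cells called G1, where Tceal1 had 0.06 with an interval that held 0 (-0.21 to 0.34) and Tceal8 0.10. The median log2 ratio of 1.86 was 1.74 with TMM factors, 1.73 with DESeq2 size factors, 1.92 centred on the median gene, 2.01 in cells called G1, 1.82 thinned before summing, 1.83 as a mean over cells and 1.85 without the 1% of cells with the most UMIs of these genes. Over the 5 genes of at least 10 CPM in both libraries it was 0.66, by construction without Bex2, Tceal1, Tceal3 and Tceal5. With no flank, 2 neighbours were higher in place of 5, as fewer genes were counted, and with 1000 kb 6 of 16 were higher and 1 lower.

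Over all genes past the floor, 47.3% of calls were higher; the share was 37.5% with TMM factors, 36.9% with DESeq2 size factors and 56.0% in cells called G1, and the median of all genes was -0.19 with TMM factors in place of -0.07. With no floor 4125 genes were higher and 1856 lower. Leaving out cells of low or high X totals, an alternative chosen after seeing the data, took r with the other X genes to 0.34 in panobinostat cells and 0.28 in vehicle cells; the cause was not tested. Depth limits Tceal1, Tceal3, Tceal6 and Tceal7, and no replicate could be left out. No paired analysis was possible because each treatment had 1 library.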

Other observations

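A few cells in each library had few UMIs from the X chromosome, and most of them had few UMIs of the 9 genes. Cells were split, after their values were seen, by the UMIs of the 577 X genes outside the families. In 19 of 2221 thinned panobinostat cells (0.856%) and 27 of 2401 thinned vehicle cells (1.12%) that total was under 50% of the library's median. Those cells had medians of 79 X UMIs under panobinostat and 80 in vehicle, against whole-library medians of 457 and 529. The 9 genes summed to a median of 1 UMI in these panobinostat cells and 1 in these vehicle cells, against 54 and 27 in cells with middling X totals. Single low cells reached 38 UMIs of the 9 in the panobinostat library and 10 in the vehicle library, and 12 of the 19 and 24 of the 27 had 3 or fewer. Bex3 had a UMI in 42.1% of the low panobinostat cells and 99.8% of the middling ones, and in 29.6% of the low vehicle cells and 99.1% of the middling ones.

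Xist did not follow, with a median of 5 UMIs in low panobinostat cells and 6 in middling ones, and 5 in both kinds of vehicle cell. Total UMIs before thinning had medians of 40443 in low and 42968 in middling panobinostat cells, and of 26316 in low and 30753 in middling vehicle cells. Low totals were also seen for other chromosomes. In the vehicle library the 27 cells low for the X were more than for any of chromosomes 1 to 19, and in the panobinostat library the 19 were not. For chromosomes 1 to 19 the number of cells under 50% of the chromosome's median ran from 6 to 53 in the panobinostat library (median 15, most for chromosome 19) and from 5 to 21 in the vehicle library (median 14).

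At the other end, 43 panobinostat cells and 42 vehicle cells had X totals over 1.5 times the median. There the 9 genes summed to medians of 96 UMIs in panobinostat cells and 74.5 UMIs in vehicle cells. Bex3 had a mean of 33.9 UMIs in these panobinostat cells and 28.7 in these vehicle cells, against 21.3 and 13.7 in middling cells.

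Below the floor, several other X neighbours were seen almost only under panobinostat. Esx1, a homeobox gene known from placenta, had 311 UMIs in the panobinostat library and 0 in the vehicle library. Tcp11x2 had 71 and 0 UMIs, Tmsb15a 158 and 1, and Arxes1, a copy of a signal peptidase subunit gene, 375 and 37.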
